A study of Homo sapiens with 40 samples.

Results

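The 49 genes described here encode the factors that start and lengthen a protein chain on the cytosolic ribosome. They were taken by symbol from a fixed list of initiation and elongation factors, and each of the 49 matched exactly 1 of the 62263 rows of the deposited table. All 49 passed the filter on low counts that left 16735 genes, and no library held a count of 0 for any of them. The cells were BEAS-2B, an immortalised human bronchial epithelial line. They were studied by Frac-seq, in which total RNA (input) is compared with RNA that sediments with several ribosomes (polysome).

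There were 8 groups of 5 libraries. A line with a control short hairpin RNA (shControl, genotype control) was compared with a line with a hairpin against IGF2BP3 (shIGF2BP3), an RNA-binding protein, called knockdown here after the label. Each line was either left unstimulated or given 100 ng/ml IL-13, an airway cytokine, and each of these 4 conditions gave 5 input and 5 polysome libraries. All cells were grown in RPMI with 10% serum, were then starved in 2% medium, and were harvested 24 h after stimulation according to the growth protocol, whereas the design text speaks of an overnight stimulation. Sample titles write siC and siIGF2BP3 where the protocol describes constitutive hairpin lines. There was 1 line per hairpin, so the hairpin and any other difference between the lines cannot be told apart. Nothing in the labels says that replicates came from separate cultures, so p-values measure the spread between these libraries, which may be technical.

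As background, translation begins when eIF2 brings the initiator tRNA to the small ribosomal subunit, which the large eIF3 complex and the cap-bound eIF4 factors place on the mRNA. The 4E-binding proteins hold the cap-binding protein eIF4E away from its scaffold when the kinase mTOR is inactive. The elongation factors then deliver tRNAs and move the ribosome, and mRNAs of several of these factors carry a terminal oligopyrimidine (TOP) tract at their first bases, a feature through which mTOR signalling is known to set their translation.

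Input libraries held between 14044352 and 40441061 estimated counts and polysome libraries between 1816848 and 34082191, and 3 polysome libraries, all of the knockdown line, held fewer than 5000000 (unstimulated replicates 1 and 5, IL-13 replicate 5). The targeted gene, IGF2BP3, measured 20.7 to 48.8 CPM (counts scaled to a common library size) in control input libraries and 17.7 to 35.1 in knockdown ones. Its ranges overlapped and its difference between lines was not called in input (-0.48 ± 0.26, edgeR adjusted p = 0.957) or polysome RNA (-0.12 ± 0.27, adjusted p = 0.886), so knockdown below is a label. Of the marker lists, 7 of 9 epithelial genes and all 6 mesenchymal genes passed the filter. Of the others, 1 of 4 leukocyte, 1 of 3 endothelial and 0 of 4 differentiated airway genes passed. The summed level of the epithelial list was 1451 to 3036 TPM (counts scaled for transcript length and library size) in input and 742 to 1712 in polysome libraries, and that of the leukocyte list 3.89 to 12.6 and 3.33 to 24.4. The epithelial sum was made up of KRT8, KRT18, KRT17 and KRT19. The defining markers EPCAM and CDH1 had medians of 0.299 and 0.143 TPM in input, KRT5 one of 0.078, and KRT14 and TP63 did not pass, so only keratins of the list had a median above 1 TPM in input, beside a mesenchymal sum of 882 to 1874 TPM in input and 394 to 686 in polysome libraries.

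The first bases of several members are shown because the TOP tract is read from them. The sequences are RefSeq's on GRCh38.p14, read 5′ to 3′ on the transcript strand from 10 bases before the annotated start to the first 15 transcribed bases. Capitals mark the motif searched, a C at the first transcribed base followed by at least 4 letters that are each C or T, read on the transcript strand only and up to the first other letter. EEF1A1, EEF2, EIF4B and EIF3F stand for the factors usually listed as TOP mRNAs, with EEF1G as a listed factor without the motif at its annotated start. EEF1B2 has 2 annotated starts, of which the downstream one is shown. EIF3K carries the motif and is not on that list, and EIF4H and EIF3I have no motif.
EEF1A1: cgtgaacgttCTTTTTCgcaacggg
EEF2: cgtcagcgttCTCTTCCgccgtcgt
EIF4B: tcatccgggtCTTTTgcgttctctt
EIF3F: cttccgcctcCTTCTTTCTCgacaa
EEF1B2: ctcttcgggtCCTTTTTCCTCTCTT
EEF1G: cgggcggcttactttgcggcagcgc
EIF3K: tttccaccacCTCTTCCTgttcccg
EIF4H: ctcgctcaccctggttcctctcgga
EIF3I: ttccggtcttactcacgttgcggcc
These windows lie at chr6:73521018-73521042 (EEF1A1, minus strand), chr19:3985449-3985473 (EEF2, minus), chr12:53006446-53006470 (EIF4B, plus), chr11:7987327-7987351 (EIF3F, plus), chr2:206159885-206159909 (EEF1B2, plus), chr11:62573877-62573901 (EEF1G, minus), chr19:38619178-38619202 (EIF3K, plus), chr7:74174346-74174370 (EIF4H, plus) and chr1:32222397-32222421 (EIF3I, plus). Each covers the end of the promoter and the start of the 5′ UTR of its gene. A start sequence was matched for 41 of the 49 members, and 12 of them (29.3%) held the motif at an annotated start. The same motif stood at a start of 7.24% of the 11532 genes tested that have a start sequence (835 genes).

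Levels are given first in TPM, the scale adjusted for transcript length on which genes can be compared, as medians over 20 libraries of a fraction. In input 3 of the 5 elongation factors had the highest levels. EEF1A1 (ENSG00000156508.19), which carries aminoacyl-tRNA to the ribosome, measured 5552 TPM in input (4129 to 6227) and 1452 in polysome libraries (876 to 3650). EEF1G, a subunit of its exchange factor, followed in input with 2698 TPM (2044 to 2881), and EEF2, the translocase, with 1401 (1028 to 1843). The ranges of these 3 input levels did not overlap. EIF5A, the hypusine-bearing factor, at 891 TPM (617 to 1013) and the helicase EIF4A1 at 748 TPM (613 to 907) came next and overlapped each other.

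At the lower end of the input levels stood EIF2B2 with 2.58 TPM, EIF5B, the GTPase that joins the ribosomal subunits, with 6.11, EIF4E3 with 7.14 and EIF5A2 with 8.82. The order changed between fractions. In polysome libraries EIF6, which keeps large subunits from joining early, had the second highest median of the 49, 1272 TPM (883 to 1557), with a range inside that of EEF1A1. EEF2 held 366 TPM there (261 to 474), below EIF3I at 951, EIF3K at 893, EIF4H at 567 and EIF3G at 537. The members took 2.55% ± 0.13 (SD, n = 20) of all counts in input and 1.71% ± 0.19 (SD, n = 20) in polysome libraries.

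**Figure D1:**
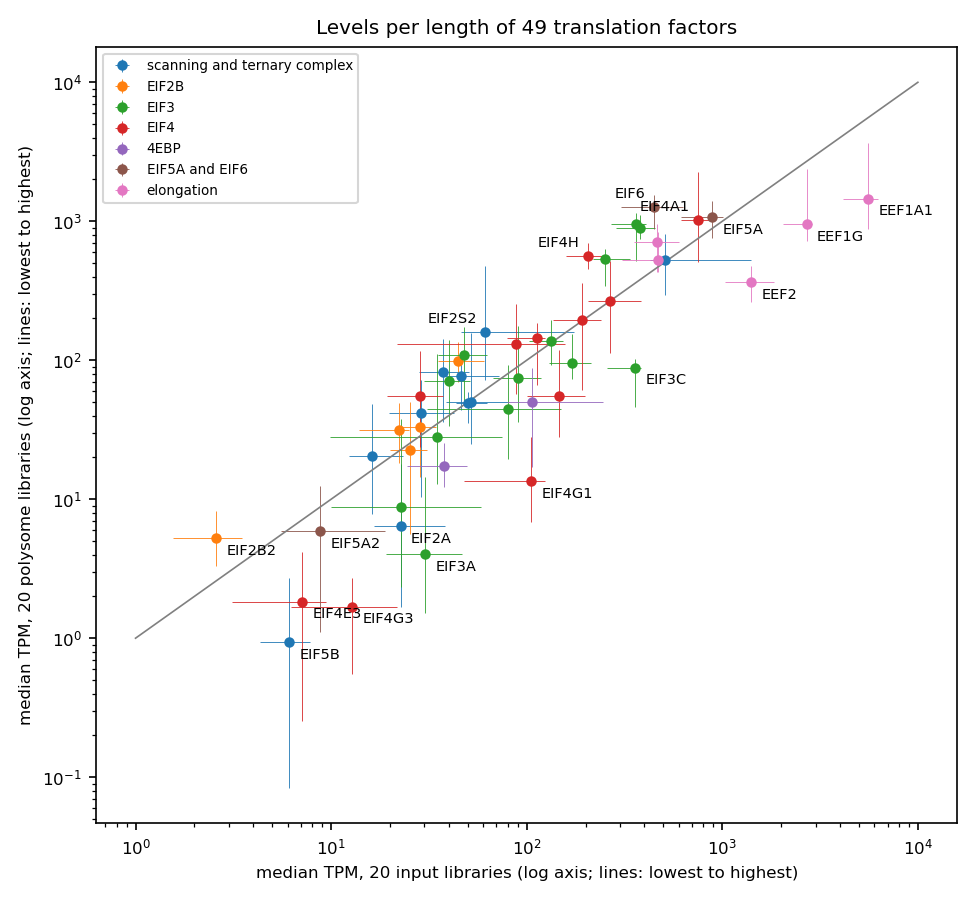
Median TPM of the 49 factors in 20 input libraries (x, log axis) against 20 polysome libraries (y, log axis), coloured by role, with lines from the lowest to the highest library and a grey line of equal level. The elongation factors EEF1A1, EEF1G and EEF2 lie far right and below the line (EEF2 at 1401 and 366 TPM), EIF6 above it (445 and 1272 TPM), and EIF4G1, EIF3A and EIF5B well below it.

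Several factors come as close pairs, with 1 copy ahead of the other by its median in each. The ratio of EIF1 to EIF1B, both start-codon factors, had a median of 11.1 in input (9.39 to 19.4) and 7.39 in polysome libraries (4.68 to 10.0). EIF4A1 exceeded its paralog EIF4A2 by a median of 8.18 in input, from 4.54 to 41.8, and 6.97 in polysome libraries, from 4.31 to 39.2. By CPM, unstimulated control replicate 1 had the highest EIF4A1 and the lowest EIF4A2 of the 20 libraries in each fraction. EIF5A exceeded EIF5A2 by 89.1 in input (48.3 to 166) and 181 in polysome libraries (85.4 to 813). For the 4E-binding proteins the margin was small, with EIF4EBP1 over EIF4EBP2 at 2.55 in input (1.63 to 6.45) and 2.73 in polysome libraries (0.870 to 6.60). The cap-binding pair went the other way, since EIF4E stood at 0.263 of EIF4E2 in input (0.201 to 0.344) and 0.399 in polysome libraries (0.191 to 0.670). Estimated counts can be split between near-identical copies, so the values of EIF3C, which has the copy EIF3CL, of EEF1A1, which has many processed pseudogenes, and of EIF4A1, which overlaps a readthrough gene, are uncertain to that extent.

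Polysome against input was the comparison in which the factors differed. Each value below is a log2 fold change, polysome over input, averaged over the 4 conditions and tested with edgeR's quasi-likelihood test over all 16735 genes with Benjamini-Hochberg adjustment. Both fractions were scaled to the bulk of their own genes, so a value says how far a gene moved relative to other genes, not how much RNA was on polysomes. In bulk RNA, fewer cells and less RNA per cell cannot be told apart. Of the 49 members, 41 were called at an adjusted p under 0.05, 24 higher and 17 lower in polysome RNA. Among all genes tested 65.1% were called, 26.2% higher and 38.9% lower. The members' median was 0.17 against -0.24 for all genes, so a member at 0 stood above the median gene.

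Of the 10 factors for scanning and the initiator tRNA complex, 5 were higher, 2 lower and 3 not called. EIF2S2 (ENSG00000125977.7), the beta subunit of eIF2, was the highest of all members, with a lowest, median and highest library of 101, 128 and 349 CPM in input and 167, 360 and 1079 CPM in polysome RNA. It rose by 1.60 ± 0.18 (SE), a 3.03-fold difference (edgeR adjusted p = 6.18e-10), and its ranges overlapped through 1 input library at 349 CPM, the unstimulated control replicate 1. The alpha subunit EIF2S1 rose less, by 0.42 ± 0.16 (adjusted p = 0.0186), and the gamma subunit EIF2S3 measured 0.14 ± 0.13 (adjusted p = 0.348). EIF1AX, which helps the scanning ribosome recognise a start codon, rose by 1.25 ± 0.13, EIF1B by 0.79 ± 0.11 and EIF5, the activator of eIF2's GTPase, by 0.55 ± 0.18. The calls of EIF2S1 (0.30, adjusted p = 0.0928) and EIF5 (0.41, adjusted p = 0.0545) were lost with the culture as a block, which leaves 3 of the 10 higher. EIF1 itself measured 0.13 and EIF2D 0.01, neither called. EIF5B fell by 2.37 ± 0.24 without overlap of libraries, down to 3 counts in the shallowest polysome library, and EIF2A, a separate initiator tRNA factor, fell by 1.58 ± 0.16.

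In EIF2B, the 5-subunit complex that recharges eIF2 with GTP, 4 subunits were higher and none lower. EIF2B1 rose by 1.29 ± 0.07 without overlap of libraries, EIF2B2 by 1.19 ± 0.13, EIF2B3 by 0.65 ± 0.10 and EIF2B4 by 0.36 ± 0.12. The largest subunit, EIF2B5, which holds the exchange activity, measured 0.01 ± 0.15 (edgeR adjusted p = 0.980).

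The 13 subunits of eIF3 moved apart, with 6 higher, 5 lower and 2 not called. EIF3I rose 2.83-fold, EIF3K by a log2 value of 1.35 ± 0.08 and EIF3M by 1.23 ± 0.11, each with all 20 polysome libraries above all 20 input libraries, and EIF3G and EIF3J each rose by 1.12. EIF3A, the largest subunit and a core scaffold of the complex, held 94.2, 136 and 181 CPM in input (lowest, median, highest) and 10.8, 21.1 and 65.5 CPM in polysome RNA. It fell by 2.44 ± 0.18, to 0.185 of input (adjusted p = 7.67e-15), without overlap. EIF3C fell by 1.90 ± 0.08, EIF3L by 0.98 ± 0.24, EIF3D by 0.72 ± 0.07 and EIF3E by 0.60 ± 0.18. EIF3F measured 0.17 ± 0.23 and EIF3H -0.15 ± 0.12, neither called. EIF3B was called at 0.18 ± 0.08, with an adjusted p of 0.0449. That call was lost in 29 of the 40 fits without 1 library, with an adjusted p of up to 0.0906 (without unstimulated control polysome replicate 2), and EIF3H passed without unstimulated control polysome replicate 1 (-0.26, adjusted p = 0.0218).

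The eIF4 factors held the widest spread. EIF4G3 (ENSG00000075151.24), a scaffold that links the cap to the ribosome, measured 36.0, 61.2 and 94.5 CPM in input libraries (lowest, median, highest) and 3.79, 8.13 and 14.0 CPM in polysome libraries. It fell by 2.96 ± 0.15, to 0.128 of input (edgeR adjusted p = 1.52e-19), the lowest value among the members. EIF4G1 (ENSG00000114867.22), the main scaffold, measured 246, 446 and 499.6 CPM in input and 30.7, 61.5 and 124 CPM in polysome RNA, a fall of 2.75 ± 0.11 to 0.149 of input (adjusted p = 4.51e-22). Neither scaffold's ranges overlapped. The third protein of this family, EIF4G2, which lacks the eIF4E binding site, measured 0.16 ± 0.13 and was not called.

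The proteins that work with the scaffolds did otherwise. EIF4H (ENSG00000106682.16), a cofactor of the helicase, measured 346, 423 and 496 CPM in input and 917, 1269.6 and 1501 CPM in polysome libraries, and rose by 1.57 ± 0.06, 2.97-fold (edgeR adjusted p = 1.14e-22). EIF4B, the other helicase cofactor, fell by 1.24 ± 0.10 (adjusted p = 1.72e-13). The helicases EIF4A1 and EIF4A2 rose by 0.67 ± 0.13 and 0.64 ± 0.15, whereas EIF4A3, which belongs to the exon junction complex, measured 0.16 ± 0.13. Among cap-binding proteins, EIF4E rose by 1.22 ± 0.14 and EIF4E2 by 0.48 ± 0.08, and EIF4E3 fell by 1.64 ± 0.14. EIF4A3 passed without unstimulated knockdown polysome replicate 5 (0.32, adjusted p = 0.0188).

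Both 4E-binding proteins fell, EIF4EBP1 by 1.10 ± 0.13 and EIF4EBP2 by 1.03 ± 0.07, the latter without overlap of libraries. EIF6 rose from a median of 352 CPM (249 to 593) to 1085 CPM (688 to 1468), by 1.51 ± 0.11 (edgeR adjusted p = 5.28e-15), without overlap. EIF5A rose by 0.39 ± 0.09 and its paralog EIF5A2 fell by 0.49 ± 0.17.

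All 5 elongation factors were called, 2 higher and 3 lower. EEF1A1 held 6755, 7705 and 8563 CPM in input libraries (lowest, median, highest) and 1505, 2083 and 5551 CPM in polysome libraries, so the groups did not overlap. It fell by 1.69 ± 0.11, to 0.309 of input (edgeR adjusted p = 5.35e-16). EEF2 held 3077, 3627 and 4494 CPM in input and 667, 1034 and 1459 CPM in polysome RNA, a fall of 1.83 ± 0.08 to 0.282 (adjusted p = 6.12e-21), again without overlap. Within the exchange complex for EEF1A1 the subunits went opposite ways: EEF1G fell by 1.12 ± 0.13, and EEF1B2 and EEF1D rose by 0.43 ± 0.10 and 0.61 ± 0.10.

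**Figure D2:**
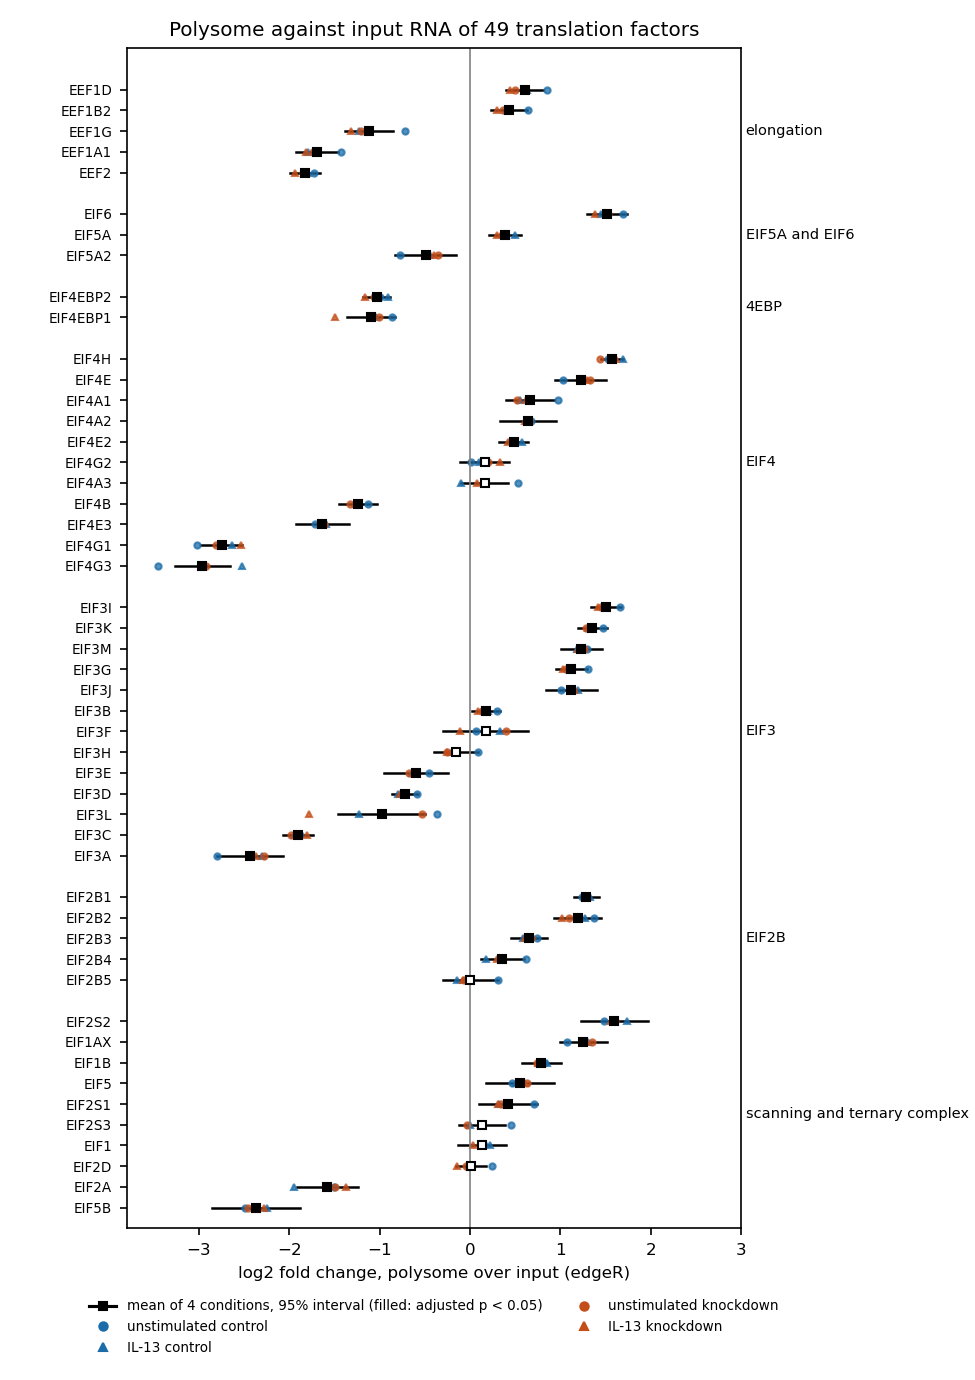
Log2 fold change of polysome over input RNA for the 49 factors, grouped by role. Black squares with lines are the average of 4 conditions with its 95% interval (filled where the edgeR adjusted p is under 0.05), coloured points are the single conditions. Values run from -2.96 (EIF4G3) to 1.60 (EIF2S2), both signs occur within the eIF3, eIF4 and elongation groups, and the points of a gene mostly lie close together, with EIF3L the widest.

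**Figure D3:**
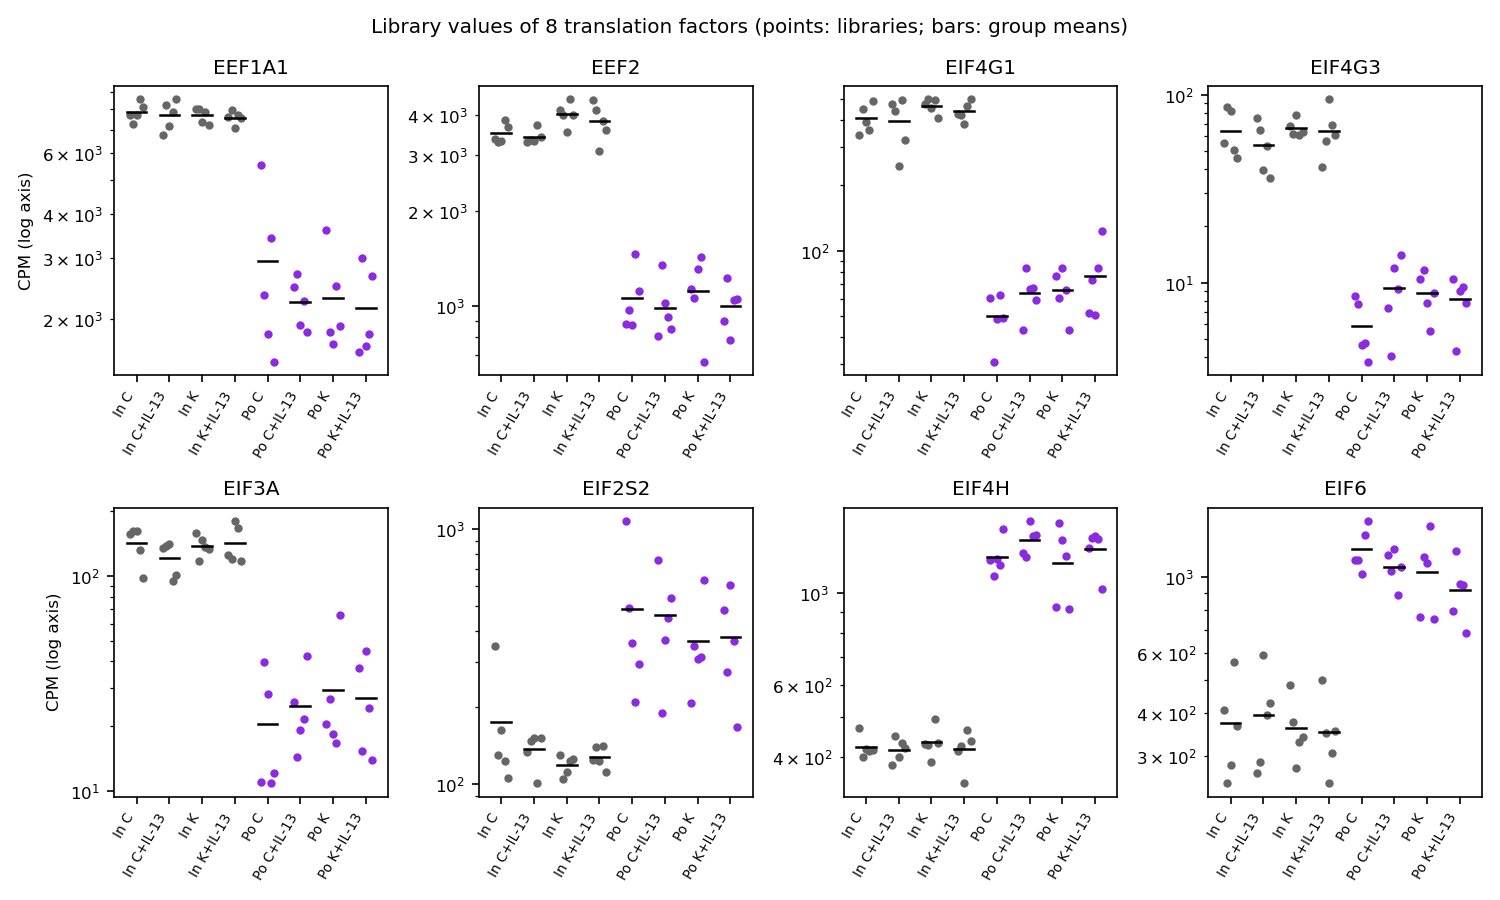
CPM (log axis) of 8 factors in each of 40 libraries, grey for input (In) and purple for polysome (Po), C for the control and K for the knockdown line, with bars at group means. The polysome points of EEF1A1, EEF2, EIF4G1, EIF4G3 and EIF3A all lie below their input points, those of EIF4H and EIF6 all above, and EIF2S2 overlaps.

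The same comparison was made within each of the 4 conditions. In unstimulated control cells 33 members were called (19 higher, 14 lower), against 40.2% of all genes (17.4% and 22.8%). With IL-13 in control cells 32 were called (17 and 15), against 39.3% of genes (16.7% and 22.6%), in unstimulated knockdown cells 30 (16 and 14), against 38.5% (16.4% and 22.0%), and in IL-13 knockdown cells 30 (15 and 15), against 39.3% (16.0% and 23.3%). Called in all 4 conditions were 15 members higher and 14 lower, where 13.2% and 16.2% of all genes were. Called in none were 14 members, where 48.3% of all genes were, 6 members were called in 1 to 3 conditions, and none was called in opposite directions. EIF3L spread most, from -0.37 in unstimulated control to -1.78 in IL-13 knockdown cells. Over all libraries of a fraction, 15 members had no overlap between the 20 input and the 20 polysome libraries, 6 of them higher in polysome and 9 lower, where 11.6% of all genes had none (4.48% higher, 7.15% lower). The higher ones were EIF2B1, EIF3I, EIF3K, EIF3M, EIF4H and EIF6, and the lower ones EIF5B, EIF3A, EIF3C, EIF4E3, EIF4G1, EIF4G3, EIF4EBP2, EEF1A1 and EEF2.

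Coding length went along with the polysome value, across genes, which are not independent replicates. Coding lengths were those of GENCODE 29, the longest coding sequence among a gene's principal transcripts,, and were found for all 49 members and 13441 of the genes tested. Spearman's rho between coding length and log2 polysome over input was -0.54 over the 49 members and -0.45 over the 13441 genes. Over the same 49, rho with median input TPM was 0.10. All these points share the same 40 libraries, and both coding length and the estimated counts follow from transcript models.

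Genes were divided by coding length into 5 bins of nearly equal size. The 7 members in the longest bin, from 2514 nucleotides, had a median of -2.37, against -1.25 for all genes of that bin, and the 11 members from 744 to 1164 nucleotides a median of 1.19 against 0.58. For the 13 members up to 741 nucleotides the median was 0.43 against 0.05, for the 10 members from 1167 to 1638 nucleotides 0.26 against 0.17, and for the 8 from 1641 to 2511 nucleotides -0.36 against -0.35. EIF4G3 (5322 nucleotides), EIF4G1 (4818), EIF3A (4146) and EIF5B (3660), the longest members, were also the 4 lowest in polysome RNA.

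A few members lay far from other genes of their length. EEF1A1, with 1386 nucleotides, stood at the 1.72nd percentile of its bin, EIF4E3, with 672, at the 4.17th, and EEF1G, with 1311, at the 6.99th. At the other side EIF2S2 (999 nucleotides) stood at the 96.0th percentile, EIF4H (744) at the 95.6th, EIF6 (735) at the 95.01st, EIF3I (975) at the 94.1st and EIF4G2 (2721) at the 94.1st. EEF2, with 2574 nucleotides, was at the 30.3rd percentile of the longest bin.

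**Figure D4:**
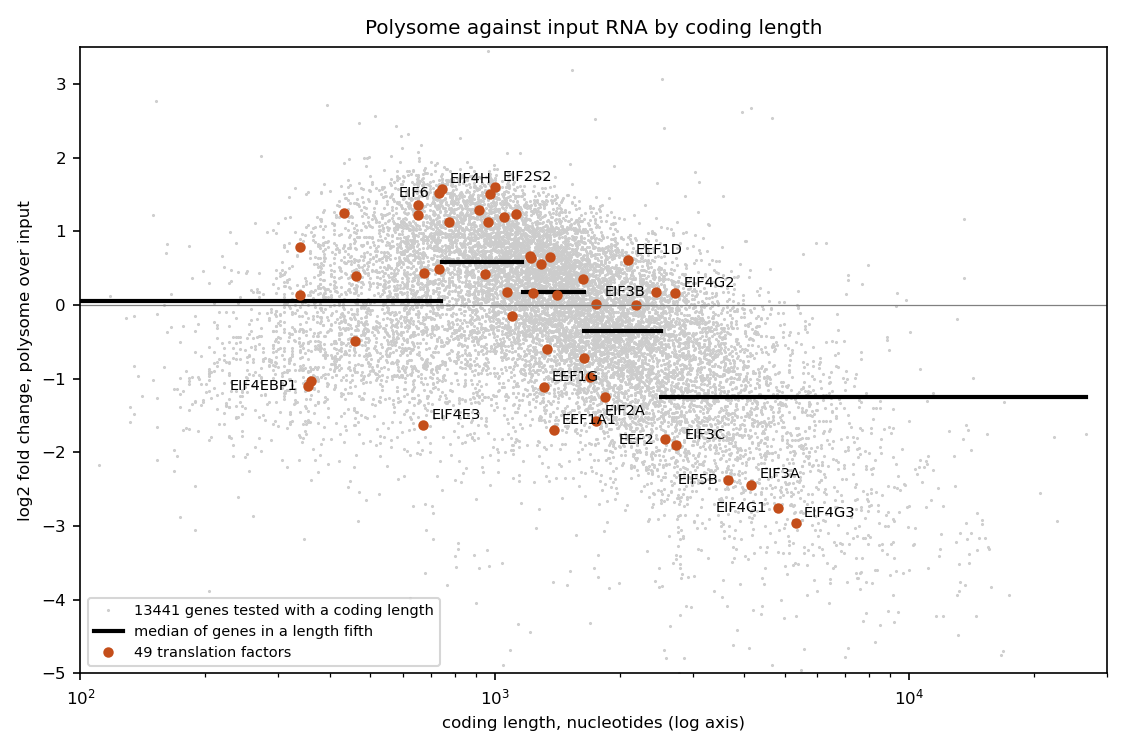
Log2 polysome over input (y) against coding length in nucleotides (x, log axis) for 13441 genes (grey) and the 49 factors (orange), with black bars at the median of each length bin. Genes beyond the axis limits are not drawn but count in the medians. The medians fall from 0.58 in the bin from 744 nucleotides to -1.25 in the longest, EIF4G1, EIF4G3, EIF3A and EIF5B lie lowest at the right, and EEF1A1 and EEF1G lie below their bin's bar while EIF4G2 lies above it.

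The 9 members listed as TOP mRNAs from general knowledge (EEF1A1, EEF1B2, EEF1D, EEF1G, EEF2, EIF3E, EIF3F, EIF3H and EIF4B) were 2 higher, 5 lower and 2 not called, with a median of -0.60. By sequence, the 12 members with the motif at a start held 4 called higher and 5 called lower, with a median of 0.07, and those without it a median of 0.39. Among all genes with a start sequence the medians were -0.24 with the motif (242 higher and 360 lower) and -0.19 without. The windows shown above hold both directions: EEF1A1, EEF2 and EIF4B, with runs of 7, 7 and 5 letters, fell, and EIF3K, with a run of 8, and EEF1B2, with a run of 16 that passes the end of its window, rose. A run of these letters is a description of the annotated start and not of the start used in these cells.

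Other genes related to translation, from a fixed list of 46 tested genes that are not members, were mixed as well. Of these, 17 were higher and 20 lower, with a median of -0.09, where 26.2% of all genes tested were higher and 38.9% lower. The list includes factors of mitochondrial translation, such as TUFM and TSFM. The list was chosen with earlier results of these data known. It holds 5 enzymes that add hypusine to EIF5A or take part in adding diphthamide to EEF2, a selection of such enzymes. These 5 were higher, from 0.35 (DPH2) to 1.58 (DHPS), which describes the selection only. The 9 cap and poly(A) regulators were 3 higher and 6 lower. Among these regulators, PABPC1, the poly(A)-binding protein, fell by 2.48 ± 0.16 and LARP1, a repressor of TOP mRNAs, by 1.11 ± 0.07. MTOR, the kinase itself, fell by 3.62 ± 0.43. Of the 5 release and recycling factors, ETF1, which reads stop codons, rose by 1.02 ± 0.14 and its partner GSPT1 fell by 1.37 ± 0.10.

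No member passed the test for IL-13 in any of the 6 comparisons made. In input, 0 of 49 members were called in control cells (0.0777% of all genes called), 0 in knockdown cells (0.0837%) and 0 on average over the lines (0.149%). In polysome RNA 0 were called in control cells (0.125%), 0 in knockdown cells (0.0956%, with 0.0896% higher and 0.00598% lower) and 0 on average (0.209%). At an unadjusted p under 0.05 edgeR gave 0, 0, 1, 2, 1 and 3 members in that order, and the Wald test of DESeq2 called 0 in 5 of these comparisons and 1, EIF3L, in the polysome average. For the averages, the 95% interval lay within 2-fold either way for all 49 members in input and for 47 in polysome RNA. The median half-width was 0.36 on the log2 scale in both, because the fit held 1 spread per gene for both fractions. Libraries within groups varied more in polysome RNA (median coefficient of variation 31.2%) than in input (13.0%). These intervals can therefore be too narrow for polysome RNA and too wide for input.

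EIF3L, a subunit of eIF3, had the smallest p of the members in the polysome average, and its libraries were chosen for display after their values were seen. In control polysome libraries it measured 46.6, 14.5, 12.2, 40.0 and 78.3 CPM unstimulated (replicates 1 to 5) and 20.6, 29.0, 30.1, 14.1 and 4.56 CPM with IL-13. In knockdown polysome libraries it measured 4.99, 39.8, 29.7, 57.8 and 41.1 CPM unstimulated and 6.95, 14.4, 11.5, 13.0 and 12.1 CPM with IL-13. The groups overlapped in both lines, in the knockdown line through replicate 1 alone, one of the shallow libraries. The average over the lines was -1.27 ± 0.34 (edgeR adjusted p = 0.183), and input gave -0.22 ± 0.33. The shift of the IL-13 effect from input to polysome was -1.05 ± 0.47 (adjusted p = 1). Without unstimulated knockdown polysome replicate 1 the polysome average was -1.41 with an adjusted p of 0.0451, and over the alternatives that changed the method or the set of libraries the adjusted p ran from 0.0299 (the Wald test of DESeq2) to 0.807 (the 20 polysome libraries alone).

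EIF4E3 had the largest positive values among the members in both IL-13 averages, 0.46 ± 0.20 in input (edgeR adjusted p = 1) and 0.52 ± 0.20 in polysome RNA (adjusted p = 0.677). The 5 elongation factors gave medians of 0.05 in input and -0.13 in polysome RNA. No member's IL-13 effect was called as different between the lines (0 members and 0.0% of genes in either fraction, with 0 members in input and 1 in polysome RNA at an unadjusted p under 0.05), and none was called as shifted from input to polysome (0 members, 0.0% of genes, 1 member at an unadjusted p under 0.05). DESeq2 called 0 members in each of these as well.

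Between the libraries labelled knockdown and control, 1 member was called. On average over treatments, EIF4EBP1 (ENSG00000187840.5), a 4E-binding protein, was lower in polysome RNA of the knockdown line, the only one of the 49. Among all genes 1.38% were called there (0.681% higher and 0.699% lower). A single call among 49 genes is near that share, so it does not set the factors apart from other genes. The next smallest p values in that comparison were those of EIF3G, at -0.31, EIF1, at -0.40, and EIF4G1, at 0.32, with edgeR adjusted p values of 0.201, 0.296 and 0.312. In input on average 0 members were called (0.406% of genes, with 0.311% higher and 0.0956% lower, 1 member at an unadjusted p under 0.05). Within a single treatment 0 were called in unstimulated input (0.012% of genes), IL-13 input (0.0%), unstimulated polysome (0.0299%) and IL-13 polysome RNA (0.0896%, with 0.0538% higher and 0.0359% lower), with 0, 0, 3 and 1 at an unadjusted p under 0.05. DESeq2 also called EIF4EBP1 in the polysome average and no member in the other 5.

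In polysome libraries EIF4EBP1 measured 56.1, 34.6, 27.0, 60.2 and 36.3 CPM in unstimulated control cells (replicates 1 to 5) and 14.0, 23.6, 34.7, 33.2 and 32.8 CPM in unstimulated knockdown cells. With IL-13 it measured 35.5, 44.2, 35.0, 29.0 and 28.7 CPM in control and 21.5, 24.3, 18.5, 24.7 and 9.53 CPM in knockdown cells. The lines overlapped without IL-13 and did not overlap with it. How many of all genes tested separate in this way was not counted. The difference with IL-13 was not called by itself (edgeR adjusted p = 0.264). The average difference was -0.70 ± 0.18, to 0.614 of control (edgeR adjusted p = 0.0407), made up of -0.63 unstimulated and -0.78 with IL-13. In the same comparison CDH5, the 1 of 3 endothelial markers that passed the filter, was higher in the knockdown line by 3.28 ± 0.51 (adjusted p = 0.000335), with 0 to 1.67 CPM in control and 1.61 to 7.74 CPM in knockdown polysome libraries, and no other listed marker was called. It was also higher in input, by 3.29 ± 0.48 (adjusted p = 0.000222). Its part in the difference of EIF4EBP1 was not tested. The EIF4EBP1 call lay close to the threshold. It was lost without the filter on low counts (adjusted p = 0.0581), with the length offset (0.0582), with only the 20 polysome libraries (0.184) and with only the 37 libraries of at least 5000000 counts (-0.51, adjusted p = 0.179).

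Leaving out single libraries ended the EIF4EBP1 call in 10 of 40 fits, with values from -0.72 to -0.62 and an adjusted p of up to 0.110. These were, in polysome RNA, unstimulated control replicates 1 and 4, IL-13 control replicates 1, 2 and 3, unstimulated knockdown replicates 1 and 2, and IL-13 knockdown replicates 1, 3 and 5.

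In input EIF4EBP1 measured 139, 56.7, 52.1, 76.7 and 63.9 CPM in unstimulated control and 59.7, 53.9, 49.4, 60.5 and 55.1 CPM in unstimulated knockdown cells. With IL-13 it measured 62.9, 56.6, 88.9, 67.8 and 78.1 CPM in control and 81.6, 54.5, 39.9, 58.1 and 47.9 CPM in knockdown cells. The lines overlapped in both settings, and the highest value was that of unstimulated control replicate 1. The input average was -0.40 ± 0.18 (edgeR adjusted p = 0.735), and -0.24 without both libraries of unstimulated control replicate 1. The shift of the line difference from input to polysome was -0.30 ± 0.26 (adjusted p = 1), so a difference between fractions was not detected, and 0 members shifted (0.0% of genes, 0 members at an unadjusted p under 0.05, 0 with DESeq2). Its relative EIF4EBP2 measured -0.08 in polysome RNA.

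**Figure D5:**
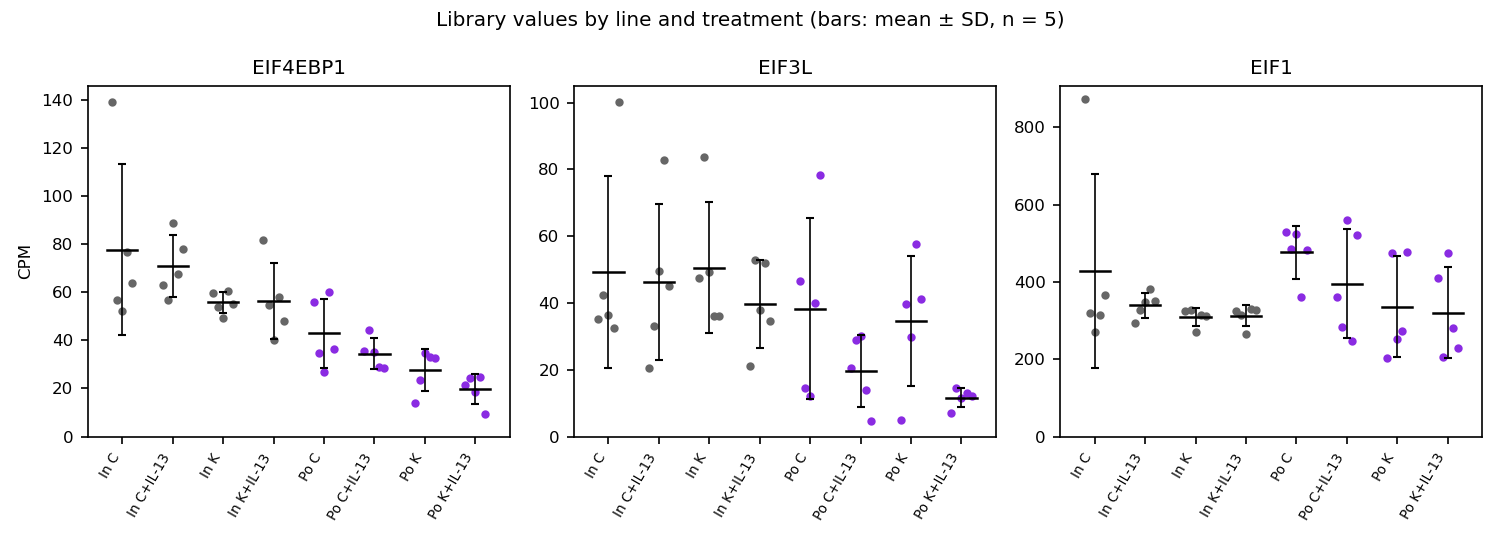
CPM of EIF4EBP1, EIF3L and EIF1 in each library, grey for input (In) and purple for polysome (Po), C for control and K for knockdown, with bars at the mean ± SD of 5 libraries. EIF4EBP1 is lower in polysome than in input groups and, with IL-13, its 5 knockdown polysome libraries (9.53 to 24.7) lie below the 5 control ones (28.7 to 44.2). That line difference with IL-13 was not called by itself (edgeR adjusted p = 0.264). EIF3L is low in IL-13 knockdown polysome libraries (6.95 to 14.4), and 1 unstimulated control input library of EIF1 stands at 872.

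Over all members the differences between lines and the shifts were small. In polysome RNA 36 of 49 members had a negative line difference, and the matching share over all genes is not given here. These signs are not independent, since all members share the same libraries. The members' median was -0.11 against -0.04 for all genes, so most genes tested were negative too. Without unstimulated control polysome replicate 1 these medians were -0.07 and -0.02, and with the 37 libraries of at least 5000000 counts -0.03 and 0.02. For the shift of line effect from input to polysome the members' median was -0.09 (all genes -0.03), without that replicate -0.03 (-0.01), and with the 37 libraries 0.03 (0.04). For the shift of IL-13 effect from input to polysome it was -0.07 (all genes -0.02) and without that replicate -0.02. Both shifts use the unstimulated control groups, and no member passed in either.

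How far replicates spread differed by gene and fraction. The coefficient of variation within groups had a median over the members of 13.0% in input and 31.2% in polysome libraries. EEF1A1 varied least in input (5.59%), EIF3F and EIF3L most (48.5% and 44.6%), and EIF5B most in polysome RNA (69.1%). The unstimulated control replicate 1 stood far from the other libraries for some members in both fractions. Of the 20 input libraries it was the highest for 10 members and the lowest for 5, and of the 20 polysome libraries the highest for 14 and the lowest for 3. Other libraries were extreme by this count too. In input, IL-13 knockdown replicate 3 was the highest for 2 members and the lowest for 17. IL-13 control replicate 3 was the highest for 12 and the lowest for 2. In polysome RNA unstimulated knockdown replicate 5 was the highest for 4 and the lowest for 12. In input the unstimulated control replicate 1 held EIF1 at 872 CPM, against 265 to 380.5 in the other 19 libraries, EIF5A2 at 40.9 against 13.8 to 22.1, and EIF4A2 at 31.2 against 91.8 to 209. In polysome RNA it held EIF2S3 at 488 CPM against 87.6 to 251, EEF1A1 at 5551 against 1505 to 3590, and EIF4A2 at 93.0 against 134 to 365. Without both of its libraries the number of members called in polysome against input on average was again 41 (23 higher, 18 lower), and EIF4EBP1 was again the member called between lines in polysome RNA (-0.65, adjusted p = 0.0301).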

How the data were processed

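Poly(A) RNA of BEAS-2B cells was sequenced as stranded paired-end libraries, per the labels' protocols. The deposited table gave, per the file headers, an estimated count per gene and library (decimals, not scaled for depth) and the authors' TPM. The TPM held summed to 82.3% to 85.9% of a full set. The submitters' processing notes name MultiQC, Trimmomatic, Salmon and DESeq2, without versions or roles. The genome build and annotation are not given in the sources used here. The members and gene lists were chosen with earlier results of these data known.

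Estimated counts were rounded to whole numbers, filtered with filterByExpr (at least 99.9% of each library's counts kept), scaled by TMM and fitted with edgeR 4.0.16 in R 4.3.3 as 1 mean per group over all 40 libraries (32 residual degrees of freedom). The 21 comparisons were two-sided contrasts with Benjamini-Hochberg adjustment over 16735 genes, called under 0.05. SE is the absolute log2 fold change divided by the square root of F. CPM use TMM-scaled totals. Precision follows the spread between libraries, taken as 1 value per gene over both fractions. Repeated PCR copies of a molecule could not be removed by identifiers.

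Named by rule were EEF1A1, EEF2, EIF4EBP1, IGF2BP3, the 3 highest and 3 lowest members in polysome against input, members called for IL-13 or line, and 4 paralog pairs. EIF3L, EIF1 and the other pairs were added after their values were seen. Alternatives were size factors and the Wald test from DESeq2 1.42.0, no low-count filter, fits to 20 libraries of 1 fraction or to 37 with at least 5000000 counts, a length offset (count over TPM), a block for the replicate number or for the culture (condition and number), 38 libraries without unstimulated control replicate 1, and leaving out each library. The procedure was tested on simulated data. Taken over all conditions, pairing by replicate number was not detected, and the main fit did not use it.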

Additional observations from a re-analysis of the deposited data

Results flagged for a closer look

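Among 96 group values of 5 libraries, for 11 members and IGF2BP3, 13 held a library far from the other 4, where chance gives about 1 in 20. EIF3L and EIF1 were among these members because their values had been seen, and genes share libraries. The number 13 therefore cannot be set against chance. In unstimulated control input replicate 1 stood high for EIF1 (872 CPM, others 271 to 366), EIF2S2 (349, others 106 to 163), EIF4EBP1 (139, others 52.1 to 76.7) and EIF4H (470.3, others 399.9 to 418). EIF3L stood high in unstimulated control input replicate 5 (100.2 CPM, others 32.4 to 42.5) and unstimulated knockdown input replicate 2 (83.8, others 36.1 to 49.2). EEF2 stood high in IL-13 control input replicate 4 (3721 CPM, others 3304 to 3412), and EIF1 low in IL-13 knockdown input replicate 3 (265, others 313 to 329.9).

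In polysome RNA EIF3A stood high in unstimulated knockdown replicate 5 (65.5 CPM, others 16.7 to 26.8) and EIF4H low in IL-13 knockdown replicate 5 (1023, others 1288 to 1379). Both of these libraries held fewer than 5000000 counts. EIF1 stood low in unstimulated control replicate 4 (360.4 CPM, others 483.7 to 530.3). IGF2BP3 stood low in IL-13 control replicate 2 (4.23 CPM, others 11.2 to 12.8) and high in unstimulated knockdown replicate 5 (26.4, others 5.35 to 9.09).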

How the results depend on the processing

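The number of members called in polysome against input was 41 on average and 38 to 42 over the alternatives, and in single conditions 28 to 39. The size factors and the Wald test of DESeq2 both gave 41 on average with the same split of 24 higher and 17 lower. The median of all genes in this comparison moved from -0.24 to -0.12 with the length offset and to -0.34 with the culture as a block, and the members' median stayed above it, at 0.29 and 0.12. Of calls on average, EIF2S1 (adjusted p = 0.0928), EIF5 (0.0545) and EIF3B (0.0774) were lost with the culture block, EIF3B also without the filter (0.212) and without unstimulated control replicate 1 (0.0928), while EIF3H, EIF4A3 and EIF4G2 passed under 1 alternative each.

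Signs changed only for members near 0. EIF2D measured -0.011 without the filter and -0.021 to 0.12 without single libraries. EIF2B5 measured -0.018 without the filter, -0.013 with the replicate number as a replicate block, -0.10 with the culture as a replicate block, -0.060 in 38 libraries and -0.068 to 0.18 without single libraries. EIF3F ran from -0.0089 (without IL-13 control polysome replicate 2) to 0.31 without single libraries. The cause was not tested.

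Between lines in polysome RNA on average 1 member was called, and 0 without the filter, with the 20 libraries of the fraction, with the 37 deeper libraries and with the length offset, and 0 to 1 without single libraries. All genes called there were 231, and 140 without the filter, 40 in the fraction alone, 532 with the Wald test and 465 in 38 libraries. In input they were 68, and 150 with the Wald test and 224 in the fraction alone. For IL-13 in polysome RNA on average 0 members were called, and 1 with the Wald test, and 0 to 1 without single libraries (1 without unstimulated knockdown polysome replicate 1). All genes called there were 35, 82 with the Wald test and 21 in the fraction alone, and in input 25, 51 and 38. Within single conditions the Wald test called 33, 22, 61 and 36 genes for IL-13 (13, 14, 21 and 16 with edgeR) and 28, 55, 90 and 144 between lines (2, 0, 5 and 15), with 0 members in each.

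The deviations of the input and polysome library of a condition and number had a median correlation of 0.01. It was over 0.1 in 9 of 20. Taken over all conditions, pairing by replicate number was thus not detected, which does not show that the samples were unpaired. In unstimulated control cells the correlations were all positive, at 0.59, 0.02, 0.62, 0.17 and 0.46 for replicates 1 to 5. In the other conditions they ran from -0.49 (IL-13 control replicate 2) to 0.34 (IL-13 knockdown replicate 4). With the number as a replicate block 41 members were called in polysome against input, and with the culture as a replicate block 38. Polysome libraries under 5000000 counts limit the low members most: EIF5B had 3 counts in 1 of them.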
